A study of Mus musculus with 33 samples.

Results

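The Tdpoz genes of the mouse are a family on chromosome 3, and 9 of the 55487 genes in the tables carry a symbol made of Tdpoz and a number. The given list of members held Tdpoz1 to Tdpoz6, and the same rule also found Tdpoz7, Tdpoz8 and Tdpoz9. The family was chosen by the measured counts of Tdpoz6, which were among the largest rises in the Hp1α/γ double mutant, so its values in that mutant are given as a description without a test. Each member encodes a protein with a TRAF domain, also called a MATH domain, and a POZ domain, also called a BTB domain. This is the architecture of SPOP, a substrate adaptor of CUL3 ubiquitin ligases. Tdpoz transcripts are known from the early cleavage embryo, around the stage at which the embryonic genome is first transcribed. HP1α, HP1β and HP1γ, encoded by Cbx5, Cbx1 and Cbx3, bind methylated lysine 9 of histone H3, and SETDB1 is one of the enzymes that place this mark.

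RNA was sequenced from mouse embryonic stem cells of the C57BL/6 strain in 11 groups of 3 libraries. There were 2 sets of wild-type libraries, called set A and set B here, single mutants of HP1α, HP1β and HP1γ, the double mutants HP1β/α, HP1β/γ and HP1γ/α (written Hp1α/β, Hp1β/γ and Hp1α/γ Δ/Δ below), the HP1β/γ/α triple mutant (Hp1α/β/γ Δ/Δ), and SETDB1FF and SETDB1KO cells (Setdb1 F/F and Setdb1 KO). Single and double mutants were individual CRISPR/Cas9 clones, and in the triple mutant and in Setdb1 KO a loxP-flanked gene was deleted by Cre, so the triple mutant also carries the Hp1α/β deletions and its cells were harvested soon after deletion. Cells were grown on fibroblast feeders and replated briefly to remove them. The study's methods call the 3 libraries of a group biological replicates, while the labels do not say whether they came from separate cultures. The libraries of a mutant clone share that clone, so p-values measure the spread between libraries of a line.

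Each library held 17330936 to 25743149 counts, with a median of 21522569. By the edgeR quasi-likelihood test with Benjamini-Hochberg adjustment, the targeted genes were called lower in the single and double mutants, with log2 differences of -2.51 for Cbx1 and -1.43 for Cbx3 in Hp1β/γ Δ/Δ, -1.63 for Cbx5 and -1.05 for Cbx3 in Hp1α/γ Δ/Δ, -1.27 for Cbx5 and -2.19 for Cbx1 in Hp1α/β Δ/Δ, and, in the single mutants of each, -1.45 for Cbx5, -2.10 for Cbx1 and -1.23 for Cbx3. In the triple mutant Cbx1 (-3.27) and Cbx3 (-1.48) were called lower, while Cbx5, also deleted there, was at -0.81 and was not called. In Setdb1 KO the log2 difference of Setdb1 was -0.93, which was under the fold threshold of 1. Replicate 2 of Hp1α/γ Δ/Δ stood apart from the other two, with 85.1 CPM (counts scaled to the size of the library) for Cbx5 against 180.9 and 181.7. Embryonic stem cell markers were present in all groups. A gene was called when its adjusted p, over all genes tested, was under 0.05 and its log2 difference exceeded 1 in size.

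The members are close in sequence, which matters for how reads are assigned to them. By the longest open reading frame of their transcripts (GENCODE M21, GRCm38), Tdpoz5 and Tdpoz7 were identical over all 1023 bases, and Tdpoz6 matched them at 1000 of 1011 aligned bases. Tdpoz1 and Tdpoz9 matched at 98.45% of aligned bases, and Tdpoz4 and Tdpoz8 at 94.25%. The following 90 bases of the reading frame, bases 301 to 390 in Tdpoz5, show 5 of the members, with capitals at bases unlike Tdpoz5.
Tdpoz5: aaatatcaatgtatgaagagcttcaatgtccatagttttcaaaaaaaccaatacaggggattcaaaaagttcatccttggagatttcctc
Tdpoz7: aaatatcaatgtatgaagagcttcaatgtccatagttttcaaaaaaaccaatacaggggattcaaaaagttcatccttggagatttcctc
Tdpoz6: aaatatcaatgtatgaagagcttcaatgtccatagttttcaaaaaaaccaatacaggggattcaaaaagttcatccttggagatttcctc
Tdpoz1: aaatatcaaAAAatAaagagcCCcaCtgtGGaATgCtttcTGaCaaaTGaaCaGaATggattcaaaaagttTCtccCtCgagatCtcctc
Tdpoz8: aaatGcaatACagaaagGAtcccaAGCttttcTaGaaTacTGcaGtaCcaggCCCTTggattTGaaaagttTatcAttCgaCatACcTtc
In this stretch the first 3 sequences are the same, while Tdpoz1 differs from them at 26 bases and Tdpoz8 at 29. Over whole transcripts, all 75-base windows of Tdpoz5 and Tdpoz7 occurred in another member. The share was 52.2% for Tdpoz6, 28.4% for Tdpoz1 and for Tdpoz9, 16.1% for Tdpoz4, 7.88% for Tdpoz8, 0.0977% for Tdpoz3 and 0% for Tdpoz2. Windows were compared among the members only, so sharing with pseudogenes that lie between them was not measured. Reads from the shared windows are divided by estimation, and the split between Tdpoz5 and Tdpoz7 is therefore uncertain.

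The family's members lie in 1004 kb of chromosome 3, between 93068823 and 94072644 (GRCm38), which the tables and the annotation fill with 51 genes in all. All 9 are annotated as protein coding and none overlaps another annotated gene. In order along the chromosome, Tdpoz8 (ENSMUSG00000096879) spans chr3:93068823-93075505, Tdpoz2 (ENSMUSG00000103362) chr3:93651542-93652686, Tdpoz1 (ENSMUSG00000094084) chr3:93669333-93676310, Tdpoz6 (ENSMUSG00000103350) chr3:93692050-93693070, Tdpoz4 (ENSMUSG00000060256) chr3:93796398-93797510, Tdpoz3 (ENSMUSG00000058005) chr3:93826020-93827117, Tdpoz5 (ENSMUSG00000094163) chr3:93960292-93961314, Tdpoz9 (ENSMUSG00000094328) chr3:94047981-94054885 and Tdpoz7 (ENSMUSG00000095251) chr3:94071622-94072644. Tdpoz3, Tdpoz4 and Tdpoz8 are on the plus strand and the others on the minus strand.

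Promoters of 300 bases (from upstream of the start to just inside the gene, RefSeq, GRCm38.p6) were matched for 6 of the 9 members, Tdpoz1, Tdpoz4, Tdpoz5, Tdpoz7, Tdpoz8 and Tdpoz9. Those of Tdpoz1, Tdpoz8 and Tdpoz9 are printed because they hold the same motifs, as does that of Spopfm2, a gene beside the cluster in the same family of proteins that moved with the members and was chosen after its values were seen. Capitals mark TATATAA, chosen after the sequences had been read, and AAACACACACCTTTAA, the longest word found at 2 or more places in each of these 4 promoters.
Tdpoz8, chr3:93068573-93068872, plus strand: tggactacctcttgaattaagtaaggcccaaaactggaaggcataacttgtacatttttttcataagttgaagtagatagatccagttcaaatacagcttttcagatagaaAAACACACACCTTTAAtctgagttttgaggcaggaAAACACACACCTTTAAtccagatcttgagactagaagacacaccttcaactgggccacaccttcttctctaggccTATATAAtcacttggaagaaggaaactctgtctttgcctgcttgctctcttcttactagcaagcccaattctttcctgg
Tdpoz1, chr3:93676234-93676533, minus strand: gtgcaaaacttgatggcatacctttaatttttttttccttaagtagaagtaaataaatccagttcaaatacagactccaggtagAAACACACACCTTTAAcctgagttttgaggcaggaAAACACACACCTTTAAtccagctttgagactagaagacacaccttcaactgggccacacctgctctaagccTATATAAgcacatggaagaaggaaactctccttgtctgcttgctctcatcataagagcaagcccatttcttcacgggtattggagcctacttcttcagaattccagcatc
Tdpoz9, chr3:94054836-94055135, minus strand: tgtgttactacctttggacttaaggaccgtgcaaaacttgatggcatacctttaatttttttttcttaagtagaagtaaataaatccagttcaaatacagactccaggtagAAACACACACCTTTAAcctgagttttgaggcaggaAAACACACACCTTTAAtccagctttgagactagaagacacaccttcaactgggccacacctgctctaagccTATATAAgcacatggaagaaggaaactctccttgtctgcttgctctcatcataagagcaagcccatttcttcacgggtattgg
Spopfm2, chr3:94178144-94178443, minus strand: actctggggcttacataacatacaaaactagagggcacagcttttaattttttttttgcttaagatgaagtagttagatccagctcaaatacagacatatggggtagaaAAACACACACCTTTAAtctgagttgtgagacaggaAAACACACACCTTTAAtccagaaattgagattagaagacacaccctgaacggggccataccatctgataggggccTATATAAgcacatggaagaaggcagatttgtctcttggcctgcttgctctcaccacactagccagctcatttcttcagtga
Each holds 1 TATATAA, whose first base is at -29 from the RefSeq start in Tdpoz8, -33 in Tdpoz9 and -31 in Spopfm2. In Tdpoz1 it is at -60, counted from a RefSeq start that lies inside the span given for the gene above. Each holds AAACACACACCTTTAA at 2 places, both upstream of TATATAA. On either strand, TATATAA occurred in 1065 of 32851 promoters of this length (3.242%), and AAACACACACCTTTAA in the 4 printed here (0.01218%), from which the word was taken. The aligned promoters of Tdpoz1 and Tdpoz9 were identical at 272 of 272 bases, and those of Tdpoz1 and Tdpoz8 at 87.59%. CACGTG, an E-box present in 7.15% of all promoters, was not among the letters of any matched promoter, and the annotated promoters of Tdpoz4, Tdpoz5 and Tdpoz7, which lie before models of 1 exon, held none of the 3 motifs. A promoter at a further, inner start of Tdpoz8 also held none of the 3, and matched that of Tdpoz4 at 96.25% of aligned bases. A match is a description of the letters in this window.

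The values of Tdpoz6 need a further caution. A library's count and its deposited TPM (a transcript level scaled for gene length and library size) imply the length by which the authors divided the count. For Tdpoz6, deposited at 1021 bases, this length was 868 to 909 bases in libraries of Hp1α Δ/Δ, Hp1γ Δ/Δ, Hp1α/β Δ/Δ and the triple mutant. Hp1β Δ/Δ had no count of it. It was 9929 to 10396 bases in wild-type set B, 9889 to 10224 in Hp1β/γ Δ/Δ, 10193 to 10219 in Hp1α/γ Δ/Δ, 9580 to 10097 in Setdb1 F/F and 8915 to 9004 in Setdb1 KO. The counts of Tdpoz6 were thus set over different lengths in these groups, which bears on every comparison of Tdpoz6 between them. The shorter lengths came from libraries with 3 to 6 counts of Tdpoz6 and the longer ones from libraries with 19.18 or more. The part of the count level in the length was not tested. Tdpoz5 and Tdpoz7 implied 901 to 906 bases in the triple mutant and 1876 to 1886 in Hp1β/γ Δ/Δ, and Tdpoz4 1007 to 1016 against 1647 to 1652. Tdpoz8 implied 1652 to 1812 bases in the triple mutant and 2051 to 2342 in Hp1β/γ Δ/Δ. In Setdb1 KO Tdpoz4 implied 985 to 989 bases and Tdpoz8 1557 to 1655, though Tdpoz6 was at 8915 to 9004 there. In all genes with over 200 counts, 0.56 to 1.76% implied more than 5 times the deposited length.

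**Figure D1:**
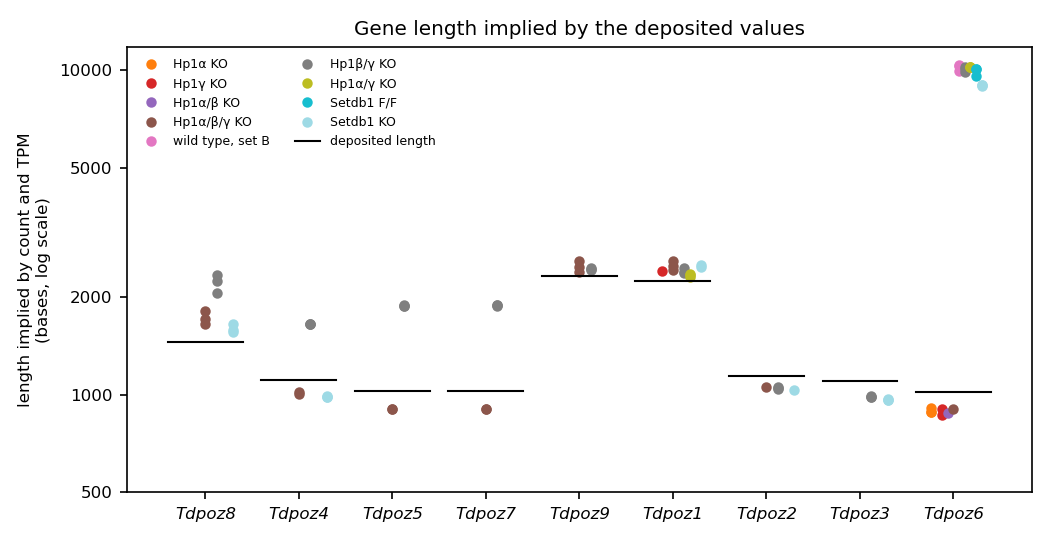
Length implied by the count and TPM of each member, in bases on a log scale, with 1 point per library and the deposited length as a bar. Tdpoz6 sits near 10000 bases in wild-type set B, Hp1β/γ Δ/Δ, Hp1α/γ Δ/Δ and the Setdb1 groups and near 900 bases in the other groups that have a point for it. Libraries with fewer than 3 counts of a member have no point.

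The question of the Hp1β/γ comparison is what the loss of HP1β and HP1γ together does to these genes. In Hp1β/γ Δ/Δ all 9 members had counts in all 3 libraries, while 8 of them had no count in any wild-type set B library. Tdpoz8, an outlying member at the first end of the cluster, had 124.29, 120.18 and 121.67 counts in the mutant libraries and 0 in set B. The mutant libraries were close to one another and did not overlap the wild type, and against a floor of 3 counts summed over the 3 wild-type libraries Tdpoz8 was at least 110.2-fold higher. Tdpoz4 had 93.0, 86.99 and 82.7 counts against 0, at least 79.18-fold higher. Tdpoz5 had 79.61, 89.49 and 83.64 against 0, at least 76.17-fold higher, and its identical copy Tdpoz7 had 68.15, 49.64 and 72.27 against 0, at least 57.2-fold higher.

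Lower counts were measured for the remaining members without a wild-type count. Tdpoz9 had 63.07, 40.69 and 43.32 counts in Hp1β/γ Δ/Δ, and Tdpoz1, its near copy, had 45.68, 44.61 and 33.58, at least 44.26-fold and 37.63-fold higher than in set B. Tdpoz2 had 13, 13 and 20.01 counts (at least 13.85-fold) and Tdpoz3 15, 11 and 7 (at least 9.935-fold). Tdpoz6 was the exception among the 9. It had 43.83, 33.02 and 40.96 counts in the mutant against 20.18, 28.64 and 19.18 in set B. The groups did not overlap, and the ratio was 1.567 (exact 95% counting interval 1.153 to 2.145), with implied lengths near 10000 bases in both.

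By the edgeR quasi-likelihood test with Benjamini-Hochberg adjustment, 7 of the 8 members tested were called higher in Hp1β/γ Δ/Δ, where 7.32% of all genes tested were called higher. Adjusted p was 2.65e-09 for Tdpoz8, 1.63e-08 for Tdpoz5, 1.66e-08 for Tdpoz4, 1.05e-07 for Tdpoz7, 7.37e-07 for Tdpoz9, 9.39e-07 for Tdpoz1 and 4.15e-05 for Tdpoz2, each higher in 3 of 3 libraries. Those 7 passed the filter on low counts only through the mutant libraries and so had to differ, and Tdpoz3 did not pass it. Tdpoz6 had a log2 difference of 0.65 in the edgeR fit (SE 0.265, adjusted p = 0.0528) and was not called. All 8 tested members had groups that did not overlap with the mutant higher, which held for 29.9% of all genes tested. The wild-type libraries are shared with the Hp1α/γ comparison, and against set A in their place the 8 members other than Tdpoz6 had 636.9 times the summed counts (exact 95% counting interval 176 to 5264), on 2 wild-type counts of Tdpoz1. Against set B, 11.9% of all genes tested were called in either direction by edgeR. Of 12 fibroblast feeder markers, 10 were tested and 0 called by edgeR, with 4 at an unadjusted p under 0.05 and 1 called by DESeq2, at 46.7 to 48.8 summed CPM in the mutant and 56.6 to 66.4 in set B, and their part in the result was not tested. In bulk RNA, more cells of a kind that transcribes these genes and more RNA per cell cannot be told apart.

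**Figure D2:**
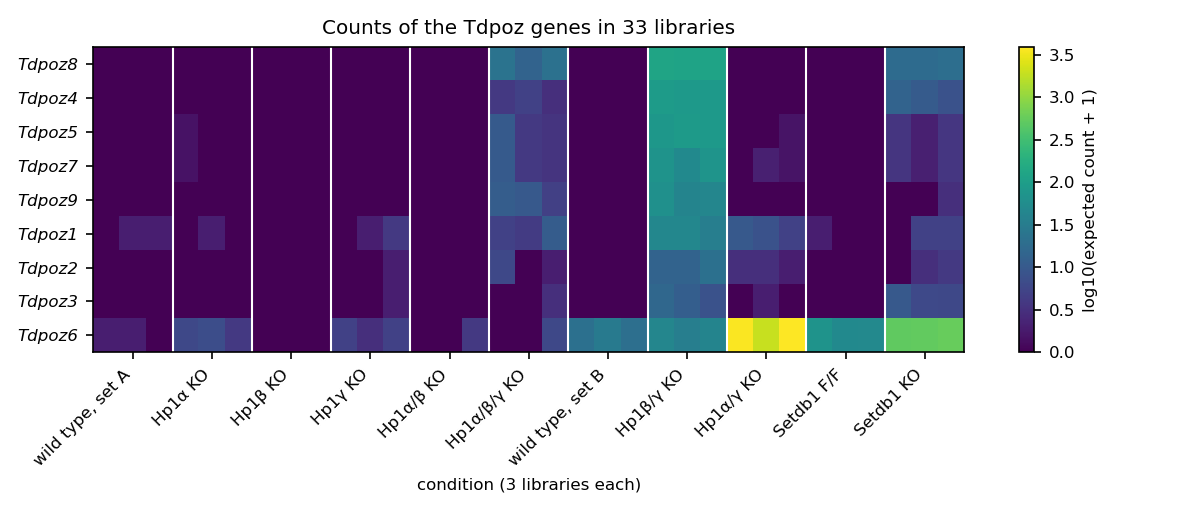
Expected counts of the 9 Tdpoz genes in the 33 libraries, as log10(count + 1), with white lines between conditions. Hp1β/γ Δ/Δ is the only group with all members above 0 in every library, and Tdpoz6 in Hp1α/γ Δ/Δ is the highest cell.

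Levels within the family are set per length, by deposited TPM. In Hp1β/γ Δ/Δ the TPM was 3.56 ± 0.401 for Tdpoz8 and 3.42 ± 0.469 for Tdpoz4 (SD, n = 3), which lie within each other's spread. Tdpoz5 had 2.88 ± 0.315 TPM, Tdpoz7 2.15 ± 0.346, Tdpoz9 1.30 ± 0.401, Tdpoz1 1.11 ± 0.254, Tdpoz2 0.927 ± 0.150, Tdpoz3 0.730 ± 0.310 and Tdpoz6 0.250 ± 0.0361. Of neighbours in this order, Tdpoz4 and Tdpoz5, Tdpoz9 and Tdpoz1, Tdpoz1 and Tdpoz2, and Tdpoz2 and Tdpoz3 differed by less than their summed SDs. The order depends on the implied lengths, which for Tdpoz6 were 9889 to 10224 bases against 1021 deposited. Its mean of 39.3 counts was near the 41.3 of Tdpoz1 and above those of Tdpoz2 and Tdpoz3. Tdpoz4, Tdpoz5, Tdpoz7 and Tdpoz8 also implied more than their deposited lengths. As a share of the counts of the 8 members other than Tdpoz6, Tdpoz8 took 25.8 ± 0.885% and Tdpoz4 18.5 ± 0.640% in Hp1β/γ Δ/Δ, and by TPM 22.2 ± 1.80% and 21.2 ± 0.676%. The family total without Tdpoz6 was 19.9 ± 2.03 CPM, and in set B it was 0 in each library.

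In the triple mutant the same 8 members were detected at lower counts. By the paper, the triple mutant was made by Cre in Hp1α/β Δ/Δ cells with a loxP-flanked Hp1γ gene, and such cells given a control vector were its control. No group is labelled as those control cells, and the Hp1α/β Δ/Δ libraries are of a constitutive double mutant. Tdpoz8 had 22, 13 and 21 counts, against 0 in wild-type set A and 0 in Hp1α/β Δ/Δ. These values were at least 17.73-fold and 17.89-fold higher, with adjusted p = 4.79e-06 and 1.26e-05 by the edgeR quasi-likelihood test. Tdpoz8 was the only member to pass the filter, did so only through the triple-mutant libraries and so had to differ, and 1 of 1 was called higher, where 25.1% of all genes tested were called higher against set A and 25.4% against Hp1α/β Δ/Δ. Tdpoz9 had 10.57, 9 and 3.81 counts against 0 in set A, and Tdpoz1 4, 3.26 and 10.14 against 0, 1 and 1. Tdpoz5 and Tdpoz7 both had 9.5, 3 and 2.5, the same values in each library for a pair of identical reading frames. Tdpoz4 had 3, 4 and 2 counts, Tdpoz2 5, 0 and 1, Tdpoz3 0, 0 and 2, and Tdpoz6 0, 0 and 5. Without a filter on low counts, 5 members were called higher against set A (18.8% of all genes) and by DESeq2 4 (23.1%), and against Hp1α/β Δ/Δ 6 (19.1%) and 5 (21.7%). Against set A, 17.1% of all genes tested were called lower by edgeR. Embryonic stem cell markers were lower for 7 of 10 tested in the triple mutant, at 1560 to 1606 summed CPM against 3730 to 3779 in set A, and endoderm markers were higher for 3 of 4 tested, at 16.8 to 19.6 against 6.88 to 9.11. Their part in the family's counts was not tested.

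Summed over the 8 members without Tdpoz6, Hp1β/γ Δ/Δ held 501.8, 455.6 and 464.19 counts per library and the triple mutant 63.57, 35.26 and 44.95. The ratio of CPM was 9.316 (exact 95% counting interval 7.843 to 11.14), and 5.46 by TPM. For Tdpoz4 it was 27.55 (14.29 to 60.92) and for Tdpoz8 6.161 (4.641 to 8.316). This comparison was made after the data had been seen and sets values from different tables side by side, with implied lengths that differ for Tdpoz4, Tdpoz5, Tdpoz7, Tdpoz8 and most of all Tdpoz6. In it, 8 of 8 members tested were called higher in Hp1β/γ Δ/Δ by the edgeR quasi-likelihood test, against 18.4% of all genes, with log2 differences from 2.50 for Tdpoz9 to 4.72 for Tdpoz4. Apart from Tdpoz8, the members tested passed the filter only through the Hp1β/γ Δ/Δ libraries and so had to differ. The planned edgeR test took the difference between the 2 mutants' effects, each over its own wild type. By edgeR only Tdpoz1 was called (adjusted p = 0.0212), where 66.5% of genes tested passed the threshold in either direction. Its wild-type side was 0 in set B and 2 counts in set A, so that its size could not be estimated, and the call was lost without set A replicate 2 (edgeR adjusted p = 0.0738) or replicate 3 (edgeR adjusted p = 0.0743). For 6 other members both wild types were at 0, so that difference could not be estimated.

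**Figure D3:**
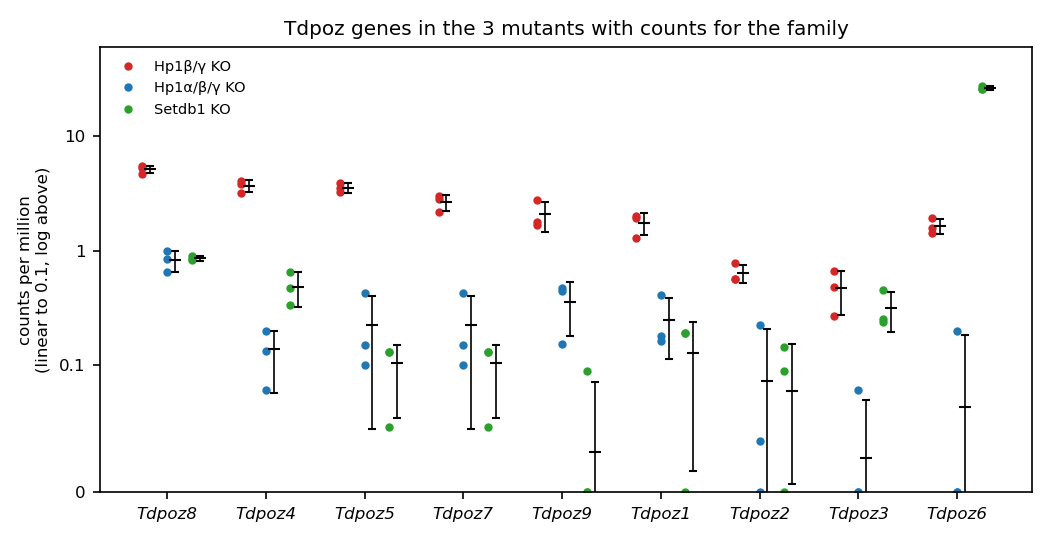
CPM of each Tdpoz gene (linear to 0.1, log above) in Hp1β/γ Δ/Δ, the triple mutant and Setdb1 KO. Points are libraries, the black marks their mean with SD (n = 3). The mean of Hp1β/γ Δ/Δ is the highest for every member but Tdpoz6, which is highest in Setdb1 KO.

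In Setdb1 KO the balance of the family was the other way round. Tdpoz6 had 510.46, 538.8 and 577.13 counts against 69.16, 49.24 and 48.35 in Setdb1 F/F. All mutant libraries lay far above the control libraries, at 26.3 ± 1.02 against 3.01 ± 0.381 CPM (SD, n = 3). The log2 difference was 3.12 (SE 0.0974, adjusted p = 5.17e-15 by the edgeR quasi-likelihood test), a ratio of 8.746 by counts (exact 95% counting interval 7.451 to 10.32) and 13.5 by TPM. The implied length of Tdpoz6 in both groups was several times its deposited length. Tdpoz8 had 16.9, 17.22 and 19 counts against 0, at least 15.77-fold higher (edgeR adjusted p = 2.52e-06). These 2 were the only members to pass the filter, Tdpoz8 only through the mutant libraries, and both were called higher, where 18.5% of all genes tested were called higher. Of the members that did not pass it, Tdpoz4 had 12.97, 9.78 and 7 counts against 0 (at least 8.929-fold) and Tdpoz3 9, 5.3 and 5.02 against 0 (at least 5.655-fold). Tdpoz5 and Tdpoz7 had 2.59, 1.08 and 2.75 each, Tdpoz1 0, 4 and 4 against 1, 0 and 0, Tdpoz2 0, 2 and 3, and Tdpoz9 0, 0 and 2. Without the filter 6 members were called higher (14.1% of all genes), and by DESeq2 4 (16.6%). Of all genes tested by edgeR, 11.4% were called lower in Setdb1 KO. In Setdb1 KO stem cell markers were lower for 2 of 10 tested, at 5258 to 5299 summed CPM against 7890 to 7925 in Setdb1 F/F, feeder markers for 2 of 5, at 19.4 to 19.9 against 24.1 to 25.2, and endoderm markers for 3 of 6 with 1 higher, at 8.34 to 10.1 against 20.1 to 20.7. Their part in the result was not tested.

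Without Tdpoz6, the family total in Setdb1 KO was 2.11 ± 0.152 CPM, close to the triple mutant's 2.13 ± 0.616 and well under the 19.9 ± 2.03 of Hp1β/γ Δ/Δ. In the test of the difference between the Setdb1 and triple-mutant effects, 0 of 2 members tested were called by the edgeR quasi-likelihood test, at 0 with unadjusted p under 0.05 and 0 by DESeq2, where 64.9% of genes tested were. Tdpoz6 differed by 2.07 on the log2 scale (edgeR adjusted p = 0.269), and the Tdpoz8 difference had no usable control counts. The implied length of Tdpoz6 was 906 bases in the triple mutant and 8915 to 9004 in Setdb1 KO. Without triple-mutant replicate 3 Tdpoz6 passed (log2 5.72, edgeR adjusted p = 0.0115).

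Loss of a single HP1 protein, or of HP1α and HP1β together, left the family at or near 0. In Hp1β Δ/Δ all 9 members had no count in any library, and in Hp1α/β Δ/Δ only Tdpoz6 had any, with 0, 0 and 3 counts. Hp1α Δ/Δ had at most 1 count in a library for the 8 members other than Tdpoz6, and 5, 6 and 3 counts of Tdpoz6. In Hp1γ Δ/Δ Tdpoz1 had 0, 1 and 3 counts and Tdpoz6 4, 2 and 4, and the 8 members other than Tdpoz6 had 0, 1 and 5 in all. No member passed the filter in these comparisons, so none was tested, while 1.56% of genes in Hp1α Δ/Δ, 2.75% in Hp1β Δ/Δ, 2.04% in Hp1γ Δ/Δ and 2.96% in Hp1α/β Δ/Δ were called higher. At these depths a group total of 0 allows up to 3 counts, in 3 libraries together. The direct comparison of Hp1β/γ Δ/Δ with Hp1β Δ/Δ, added after the data were seen, called 8 of 8 tested members higher, where 12.6% of all genes were. With Hp1β Δ/Δ at 0 throughout, those members passed the filter only through Hp1β/γ Δ/Δ and could only be called higher. In the planned difference of effects only Tdpoz1 was called (edgeR adjusted p = 0.00256), where 39.7% of genes passed in either direction, with set B and Hp1β Δ/Δ at 0 and 2 counts in set A, so that its size could not be estimated.

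The 2 wild-type sets differed for Tdpoz6. It had 20.18, 28.64 and 19.18 counts in set B and 1, 1 and 0 in set A, a ratio of 33.7 (exact 95% counting interval 8.977 to 283.9). Tdpoz6 was the only member tested in this comparison and was called (log2 4.84, SE 0.633, adjusted p = 3.56e-05 by the edgeR quasi-likelihood test), where 2.55% of all genes tested were called higher in set B. It passed the filter on low counts only through the set B libraries and so could only be called higher there. Set B is also the control of the contrast by which the family was chosen. The implied length of Tdpoz6 could not be had from set A itself, whose counts were too low. In the mutants compared with set A that had enough counts of Tdpoz6, it was 868 to 909 bases, at 3 to 6 counts, against 9929 to 10396 in set B. The part of this difference in the result was not tested.

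In Hp1α/γ Δ/Δ, the contrast by which the family was chosen, Tdpoz6 stood apart from the rest. It had 3739.15, 1924.99 and 3902.68 counts, or 181.985, 105.482 and 181.192 CPM, a mean of 156 ± 43.9 and 181.6 without replicate 2, the library that stood apart for Cbx5. That was 150.8 times set B by counts and 119 times by TPM, at an implied length far above the deposited one in both groups. The neighbours of Tdpoz6 were near 0: Tdpoz1 had 9, 7 and 4 counts, Tdpoz2 2, 2 and 1, and Tdpoz4, Tdpoz8 and Tdpoz9 had none in any library. The 8 members other than Tdpoz6 together held 11, 11.07 and 6.08 counts. Of all genes tested in this contrast 6.75% were called higher and 16.3% lower. Feeder markers were lower for 8 of 9 tested, at 13.2 to 14.3 summed CPM against 56.6 to 66.4 in set B, and stem cell markers were higher for 5 of 10, at 6191 to 8717 against 3673 to 3734. Their part was not tested.

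The members' neighbours on chromosome 3 were examined in the same span. Of 25 annotated pseudogenes between the outermost members, 5 were tested in Hp1β/γ Δ/Δ and 4 were called higher, against 7.32% of all genes, all 4 having passed the filter only through the mutant libraries. Gm9113 had 79.09, 81.71 and 74.57 counts against 0, 1 and 0, Gm9124 75.77, 72.41 and 101.98 against 0, 1 and 0, Gm5541 48.71, 72.83 and 73.63 against 0, and Gm9121 42.09, 48.62 and 48.73 against 0. All 4 were apart from the wild type in every library. How far these pseudogenes share reads with the members was not measured. Without passing the filter, Gm5852 had 25.06, 9.8 and 15.09 counts against 0, and Gm9116 10.83, 6.77 and 5.08 against 0. Of the 17 other genes in the span, which include the S100 and epidermal genes of the region, 7 were tested and only S100a10, a calcium-binding protein gene, was called higher (log2 1.63). In Setdb1 KO none of the pseudogenes passed the filter, but Gm5541 had 6.03, 6 and 5 counts, Gm9113 3, 4.72 and 5.36, Gm9121 1.1, 5.32 and 4, and Gm9124 4.9, 2.73 and 1.55, all against 0 in Setdb1 F/F. Of the other genes, 5 of 7 tested were called higher in Setdb1 KO, where 18.5% of all genes tested were. Among the 5 were Tchh (log2 5.14) and Hrnr (log2 2.82), genes of the hair follicle and cornified epidermis. S100a10 was called lower there (log2 -1.85). The 2 comparisons do not share control samples, and the difference was not tested.

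**Figure D4:**
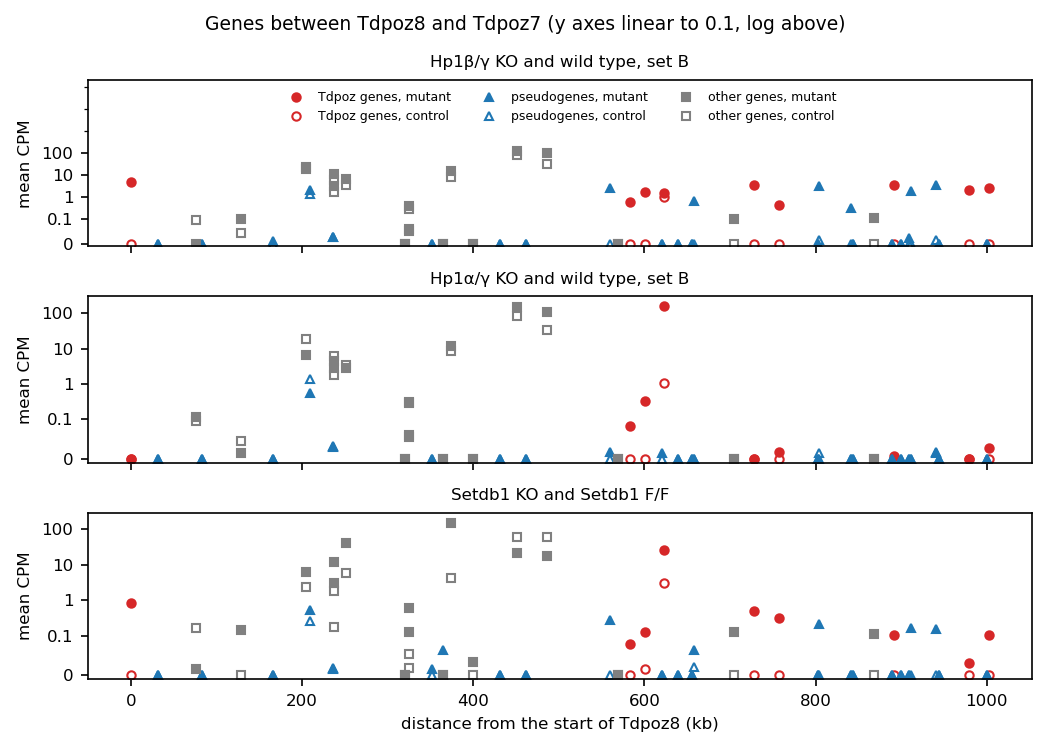
Mean CPM of the genes between Tdpoz8 and Tdpoz7 against the distance from the start of Tdpoz8, for Hp1β/γ Δ/Δ, Hp1α/γ Δ/Δ and Setdb1 KO with their controls as open symbols. In Hp1β/γ Δ/Δ 8 members and 6 pseudogenes lie above 0.3 CPM with controls at or near 0, while in Hp1α/γ Δ/Δ Tdpoz6 is the only member above 1 CPM, at 156.

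The members were set beside genes of the 2-cell-like state, a minor state of stem cell cultures that transcribes genes of the early embryo. Of 28 genes listed, 27 were measured. In Hp1β/γ Δ/Δ 22 of 24 tested were called higher, with a median log2 difference of 8.08 (all genes 0.0049), in the triple mutant 21 of 23 (7.89) and in Setdb1 KO 24 of 26 (8.05), and in Hp1α/γ Δ/Δ 0 of 2 tested. In the same order, 7.32%, 25.1%, 18.5% and 6.75% of all genes tested were called higher. The medians depend on genes without wild-type counts, and only 2 of the list passed the filter between the 2 wild-type sets. Apart from Dppa2, Dppa4 and Arg2, the genes tested passed it only through the mutant libraries and so had to differ. Without Dppa2, Dppa4 and Arg2, which stem cells also express, 24 genes had 127 ± 2.72 summed CPM in Hp1β/γ Δ/Δ, 140 ± 8.60 in Setdb1 KO and 40.0 ± 1.44 in the triple mutant. Thus the 8 Tdpoz genes other than Tdpoz6 were about as high in Setdb1 KO as in the triple mutant, while the 2-cell-like genes of Setdb1 KO were as high as in Hp1β/γ Δ/Δ. Each is a mean of 3 libraries, and the difference in pattern was not tested. Hp1α/γ Δ/Δ had 2.15 ± 0.338 CPM for the 24 genes, though Tdpoz6 was at its highest there.

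**Figure D5:**
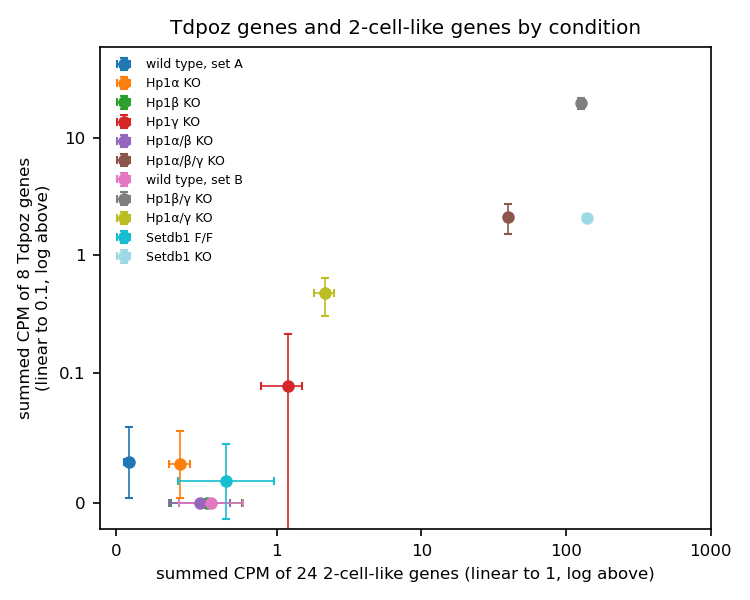
Summed CPM of the 8 Tdpoz genes other than Tdpoz6 against the sum of 24 2-cell-like genes, by condition (mean with SD, n = 3, both axes linear near 0 and log above). Hp1β/γ Δ/Δ and Setdb1 KO lie at like 2-cell-like sums, 127 and 140, but at Tdpoz sums of 19.9 and 2.11.

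The Spopfm genes (Spopfm1, Spopfm2 and Spopfm3), which lie beyond the cluster and also encode SPOP-like proteins, were added after their values had been seen. All 3 were called higher in Hp1β/γ Δ/Δ, 2 of 2 tested in the triple mutant and 3 of 3 in Setdb1 KO. Of all genes tested, 7.32%, 25.1% and 18.5% were called higher in these comparisons. The Spopfm genes were at 0 in set A, set B and Setdb1 F/F. They passed the filter only through the mutant libraries and so had to differ. Spopfm2 had 154.85, 154.9 and 156.29 counts in Hp1β/γ Δ/Δ against 0 in set B. The 23 listed MATH-BTB and CUL3 ligase genes, which include Spop and Spopl, were all measured and tested. In Hp1β/γ Δ/Δ 0 of them were called by the edgeR quasi-likelihood test and 0 by DESeq2, with 16 at an unadjusted p under 0.05. Of all genes tested by edgeR there, 11.9% were called in either direction. In the triple mutant Rhobtb2 (log2 1.74) was higher and Btbd2 and Klhl13 (log2 -1.35 and -2.09) lower, and in Setdb1 KO Btbd3 (log2 2.50) was higher. In the triple mutant 17.1% of all genes tested were called lower. In Hp1α/γ Δ/Δ 3 of the 23 were called lower and none higher, where 16.3% of all genes tested were called lower and 6.75% higher.

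Over the 11 condition means and 13557 genes, the genes whose pattern, as log2(CPM + 1), was most like the summed 8 members, by Pearson's r, were AA792892 (0.9875), Pramef25 (0.9859), Spopfm2 (0.9827), BC080695 (0.9825) and Gm6763 (0.9778). Most like Tdpoz6, whose counts were set over different lengths in these conditions, were Fmc1 (0.9702), Crls1 (0.9597), Rdm1 (0.9541), Gm11977 (0.9431) and Nab2 (0.9430). These are descriptions over 11 points, several of which share depth and culture, and carry no p. Pramef25 and Gm6763 are also among the 2-cell-like genes listed above. No gene was in both sets of 5.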

How the data were processed

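RNA-seq values of 33 libraries in 11 conditions came from 8 tables. Per the labels, the authors' notes name TopHat2 2.1.1, RSEM, edgeR and GRCm38.p5, and the study's methods name DESeq2, without saying how each value was made. The deposited expected counts are the authors' estimated counts per gene, of which 68.5% of those above 0 were whole to within 0.005, and the deposited TPM values are the authors' counts scaled by gene length and library. Mean TPM, fold change, p-value and adjusted p columns hold the authors' own comparisons and were not used. The labels and methods name different library kits.

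Expected counts were rounded and tested with edgeR 4.0.16 (R 4.3.3) by the quasi-likelihood test, with TMM scaling, filterByExpr at a minimum count of 10, and Benjamini-Hochberg adjustment over all genes tested. Calls needed an adjusted p under 0.05 and, between groups, an absolute log2 difference over 1. Mutants were compared with the wild-type set of their table (set A for single mutants, Hp1α/β Δ/Δ and the triple mutant, set B for Hp1β/γ and Hp1α/γ Δ/Δ), Setdb1 KO with Setdb1 F/F, and the triple mutant also with Hp1α/β Δ/Δ. CPM used TMM effective library sizes. A group total of 0 was set to a floor of 3 counts over its libraries, and intervals are exact 95% ones that cover counting error only. Alternatives were RLE size factors, DESeq2 1.42.0, no filter, no fold threshold, set A in place of set B or the reverse, TPM, a block for the replicate number, and leaving out each library in turn. The fits were tested on simulated data. Every gene whose symbol was Tdpoz and a number was named, with neighbours on the chromosome and listed genes. The members and lists were chosen with earlier results of these data known. Of 55487 genes, 55141 matched GENCODE M21 by Ensembl ID. Same-numbered libraries did not deviate together (correlations from -0.0616 to 0.0557), so the numbers were not taken as pairs.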

Additional observations from a re-analysis of the deposited data

Results flagged for a closer look

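Tdpoz1 was picked out because its change in Hp1β/γ Δ/Δ differed from its change in another mutant by a test of the difference itself. It was called in the difference from the triple-mutant effect (adjusted p = 0.0212 by the edgeR quasi-likelihood test), where 66.5% of genes tested passed in either direction. It was also called in the difference from the Hp1β Δ/Δ effect (edgeR adjusted p = 0.00256), where 39.7% passed. In both fits Tdpoz1 passed the filter on low counts only through the Hp1β/γ Δ/Δ libraries. Tdpoz1 had 45.68, 44.61 and 33.58 counts in Hp1β/γ Δ/Δ, 4, 3.26 and 10.14 in the triple mutant, 0 in Hp1β Δ/Δ, 0 in wild-type set B and 0, 1 and 1 in set A. With set B at 0, and Hp1β Δ/Δ at 0 as well in the latter, neither difference has a size that can be estimated, and the only wild-type counts are the 2 in set A. The call against the triple mutant was lost without set A replicate 2 (edgeR adjusted p = 0.0738) or replicate 3 (edgeR adjusted p = 0.0743).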

How the results depend on the processing

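Over all settings, 139 counts of members called stayed within 1.5 times the reported count, 27 were higher and 2 lower, and 444 log2 differences of members kept their direction and side of the threshold, 23 passed it, 2 no longer did and 1 turned. The replicate block changed no count of members called, with 7 in Hp1β/γ Δ/Δ as without it. In that comparison all 3 mutant libraries correlated best with the wild-type library of their own number (0.0557, 0.0258 and 0.0362), a hint from the data and not the design. With set B as the wild type, 1 member (Tdpoz6, lower, at another implied length) was called in each of Hp1α Δ/Δ, Hp1β Δ/Δ, Hp1γ Δ/Δ and Hp1α/β Δ/Δ, and 2 in the triple mutant. Tdpoz6 passed the filter there only through set B and so could only be called lower. In Hp1β/γ Δ/Δ against set A, Tdpoz6 had a log2 difference of 5.50 (edgeR adjusted p = 1.58e-07), having passed the filter only through the mutant libraries. By DESeq2 4 members were called in the triple mutant against set A, 5 against Hp1α/β Δ/Δ and 4 in Setdb1 KO. DESeq2 also called 2 in the difference of Hp1β/γ and triple-mutant effects and 7 in that of Hp1β/γ and Hp1β effects. By DESeq2, 25.8% and 16.7% of all genes tested were called higher in these differences. With no filter the counts were 5, 6 and 6, as more members were tested. Calls of members in Hp1α/γ Δ/Δ are not given, since the family was chosen by Tdpoz6 there, though the totals that open this paragraph include its settings. The direct comparisons, chosen after seeing the data, called 8 against the triple mutant, 8 against Hp1β Δ/Δ and 1 between Setdb1 KO and the triple mutant. In the same order, 18.4%, 12.6% and 19.7% of all genes tested were called higher. Directly compared, Tdpoz6 was 4.38 higher in Hp1β/γ Δ/Δ than in the triple mutant (log2, at implied lengths of 9889 to 10224 and 906 bases), where the difference of effects was -0.47.

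Leaving out 1 library gave 1 to 2 calls in the triple mutant against either control, 2 to 3 in Setdb1 KO, 7 to 8 in Hp1β/γ Δ/Δ, 0 to 1 in the difference of Hp1β/γ and triple-mutant effects and 0 to 1 in that of Setdb1 and triple-mutant effects. The call of Tdpoz1 in the former was lost without set A replicate 2 (edgeR adjusted p = 0.0738) or replicate 3 (0.0743), and Tdpoz6 passed in the latter without triple-mutant replicate 3. By TPM in place of counts, the Hp1β/γ to triple-mutant ratio of the 8 members was 5.46, and the Tdpoz6 ratio in Setdb1 KO 13.5. Other causes were not tested. At the depth of these libraries, members that did not pass the filter gave no test.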
